A study of Mus musculus with 8 samples.

Results

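The NOTCH signalling genes described here are the receptors Notch1, Notch2, Notch3 and Notch4, the ligands Jag1, Jag2 and Dll4, and the HEY target genes Hey1, Hey2 and Heyl. They were taken by gene symbol from the deposited table, in which all 10 were found among 21649 genes. RNA was sequenced from cells isolated by fluorescence-activated sorting from mouse lung (2 libraries), intestine (3 libraries) and bladder (3 libraries), and labelled as smooth muscle cells of non-vascular origin. Every group shared the genotype Cspg4-Dre/Acta2-CreERT/R26-GFP, so that a Dre recombinase under Cspg4, a tamoxifen-dependent Cre under Acta2 and GFP at Rosa26 were carried in all 3 tissues. Every group had also received tamoxifen (0.75 mg for each 10 g the mouse weighed, into the peritoneum, over 3 days, dissolved in corn oil at 20 mg/mL), and no untreated group is among the samples. Which cells the reporter marks depends on the Cspg4 and Acta2 drivers, and the sources used here give neither the sort gate, the age and sex of the mice nor whether mice were pooled. Since no label ties a library to its own mouse, a p-value covers the spread among these libraries, which could be technical, and no more.

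NOTCH receptors are cut after contact with a JAG or DLL ligand on a neighbouring cell, and the released intracellular part joins the DNA-binding protein RBPJ to switch on genes such as those of the HEY family, which encode transcriptional repressors. Notch3 is best known as the NOTCH receptor of mural cells (vascular smooth muscle cells and pericytes), whereas Notch1, Notch4 and Dll4 are well known from endothelium. JAG1 is presented by endothelial and by smooth muscle cells, and signalling through NOTCH3 and JAG1 is known to maintain the contractile state of vascular smooth muscle.

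A pair of reference sequences is shown because their genes, Notch3 and Hey2, had the largest differences of the 10 members between intestine and bladder and between lung and bladder. Each is the RefSeq promoter window of 250 bases before to 50 bases after the annotated start, 5′ to 3′ on the gene's strand, from build GRCm38.p6. Capitals mark the core TGGGAA of the RBPJ site on either strand.
Hey2 promoter, chr10:30842734-30843033, minus strand: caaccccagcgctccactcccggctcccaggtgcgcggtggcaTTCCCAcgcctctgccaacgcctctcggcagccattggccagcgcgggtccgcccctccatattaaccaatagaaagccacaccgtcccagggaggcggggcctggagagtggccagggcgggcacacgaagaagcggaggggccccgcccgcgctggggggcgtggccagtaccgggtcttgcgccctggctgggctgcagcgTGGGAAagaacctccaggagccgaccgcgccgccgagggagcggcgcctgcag
Notch3 promoter, chr17:32166841-32167140, minus strand: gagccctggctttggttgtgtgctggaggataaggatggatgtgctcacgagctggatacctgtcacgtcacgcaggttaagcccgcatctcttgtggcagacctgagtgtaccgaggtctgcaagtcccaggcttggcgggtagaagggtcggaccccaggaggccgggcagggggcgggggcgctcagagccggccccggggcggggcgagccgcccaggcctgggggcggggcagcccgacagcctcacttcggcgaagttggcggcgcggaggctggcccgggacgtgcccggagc
The Hey2 window held 2 matches to TGGGAA, with their first base at position -207 from the start on the opposite strand and at position -3 on the gene's own strand. Both belonged to matches to the longer GTGGGAA, which overlaps the core. A window was at hand for 8 of the 10 members, and Hey2 was the only 1 of them with TGGGAA on either strand. Over all 32851 mouse promoter windows, 25.6% held TGGGAA and 6.38% held GTGGGAA. The E-box CACGTG, a sequence bound by HEY proteins, was in 7.15% of all windows, and the CArG box of serum response factor in 1.63%, against 0 of the 8 members for each, on both strands. These matches describe letters and are not mapped binding sites.

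Depth, read from the spacing of the deposited values, was 12.67 and 13.62 M reads in lung, 12.02 to 13.19 M in intestine and 9.72 to 10.95 M in bladder, and between 19206 and 20357 genes were above 0 in a library. The unit is the authors' normalized read count, rounded to whole numbers. Differences are on a log2 scale after adding 1, which makes the change of low genes look smaller. They were tested with limma across 18097 genes, with Benjamini-Hochberg adjustment over all of them and a threshold of 0.05. Smooth muscle markers were present in every library. Acta2, smooth muscle actin, was at 2719 and 2630 in lung, at 2876, 2454 and 2600 in intestine and at 2933, 2549 and 2323 in bladder. Myh11, the smooth muscle myosin heavy chain, was at 10795 and 10378 in lung, at 12038, 11371 and 12454 in intestine and at 6099, 4423 and 4601 in bladder. The summed level of 10 smooth muscle markers was 2860 to 3112 ppm of all values in lung, 2710 to 2920 ppm in intestine and 1597 to 1949 ppm in bladder. Of 10 fibroblast markers the sum was 3737 to 4178 ppm in lung, 4522 to 4830 ppm in intestine and 6072 to 6691 ppm in bladder. Markers of other cell types were thus read beside those of smooth muscle in all 3 tissues. In RNA of many cells, fewer cells of a type and less RNA per cell cannot be told apart.

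Most members were higher in intestine than in bladder. Of the 10 members 9 rose in intestine (28.7% of all genes tested did) and 0 fell (23.3% of all genes), and Notch2 was the exception. At an unadjusted p under 0.05 in limma the counts were again 9 and 0. In lung against bladder 7 members rose (19.2% of all genes) and 0 fell (21.8%), with 8 and 1 at an unadjusted p under 0.05. Between lung and intestine Heyl alone rose in lung (1 of 10, against 15.9% of all genes) and 4 fell there, namely Notch1, Jag1, Jag2 and Dll4 (23.6% of all genes fell), with 1 and 5 at an unadjusted p under 0.05. The median log2 difference of the 10 members was 2.32 for intestine minus bladder, 1.37 for lung minus bladder and -0.52 for lung minus intestine, against 0.06, 0 and -0.04 over all genes tested. In limma's F test over the 3 tissues, 9 of the 10 passed (62.9% of all genes did), again all but Notch2. The comparisons with bladder share the bladder libraries.

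**Figure D1:**
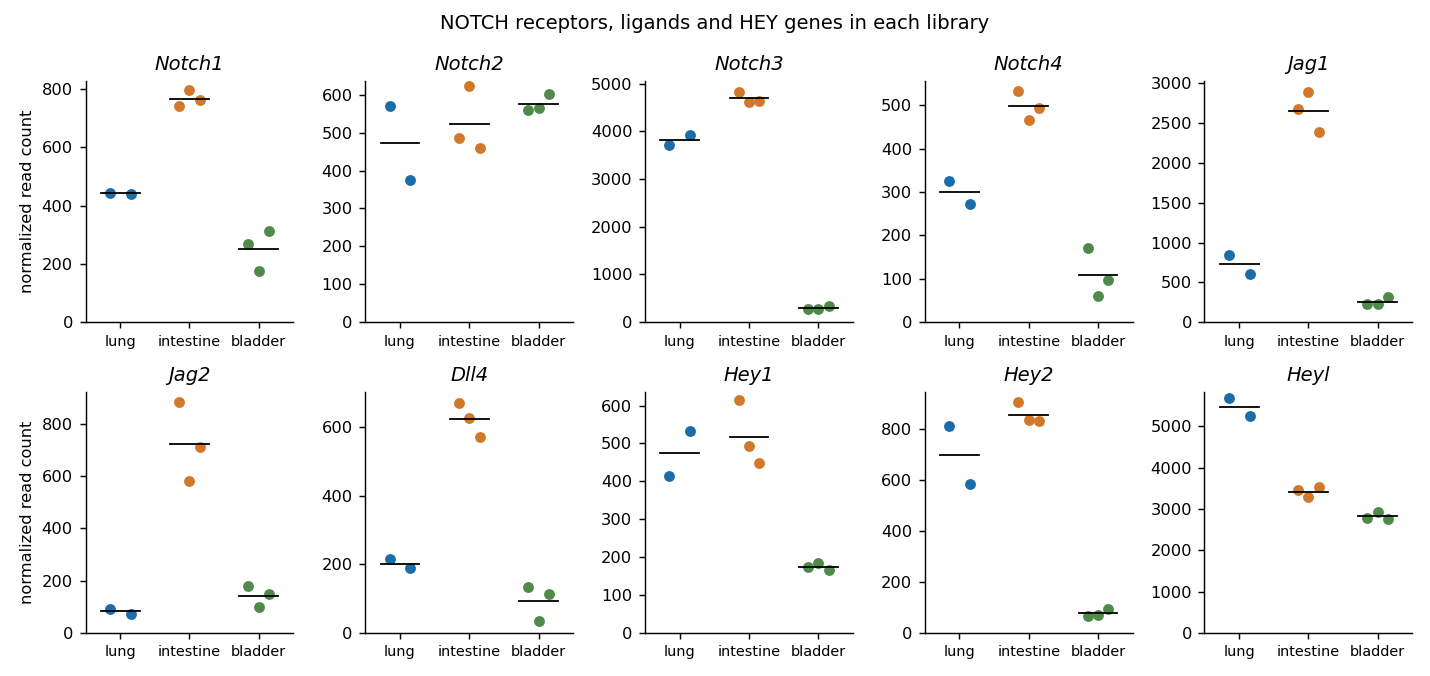
Normalized read count of each member in every library, 1 panel per gene; points are libraries, lines are tissue means, and every axis starts at 0. Intestine libraries were highest for Jag1, for example, and lung libraries for Heyl, and the Notch2 libraries of the 3 tissues overlapped.

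**Figure D2:**
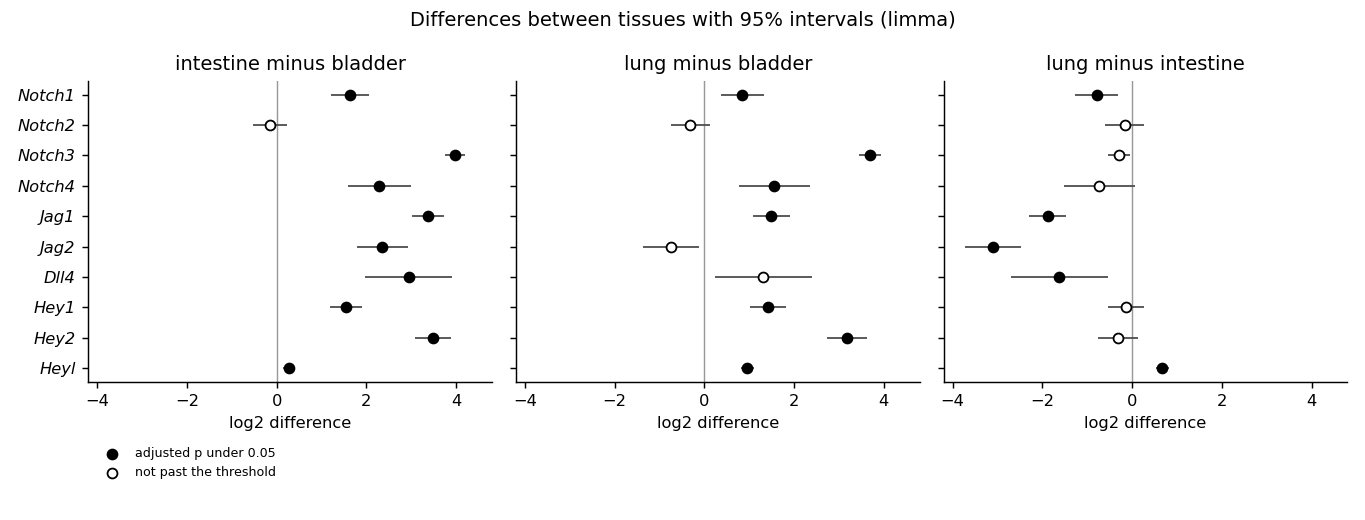
Log2 difference of each member (x axis) for the 3 pairs of tissues, with 95% intervals from limma; filled points passed an adjusted p of 0.05 and open points did not. Notch3 and Hey2 had the largest differences from bladder, and Jag2 the largest difference between lung and intestine.

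Among the receptors Notch3 differed most from bladder. Notch3 (chromosome 17, 32339794 to 32385826, minus strand, whole gene in build mm39, as for all positions below except promoter windows) was at 3707 and 3932 in the lung libraries, at 4830, 4612 and 4636 in the intestine libraries and at 273, 273 and 347 in the bladder libraries. Every lung library was below every intestine library, and all of them were more than 10 times above every bladder library. The mean was 12.8 times the bladder mean in lung and 15.8 times in intestine. The log2 difference was 3.69 (SE 0.11) for lung minus bladder and 3.98 (SE 0.10) for intestine minus bladder, with limma adjusted p of 6.99e-08 and 5.43e-08. Of all genes tested, 1.86% had a larger difference for lung minus bladder and 5.58% for intestine minus bladder. Lung and intestine differed by -0.30 (95% interval -0.54 to -0.05), which did not pass the test (limma adjusted p = 0.057). That call was gained when bladder library 3 was left out (adjusted p = 0.010), with the difference itself the same.

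Notch1 and Notch4, the receptors known from endothelium, had the same order of tissues as Notch3. Notch1 (chromosome 2, 26347915 to 26406675, minus strand) was at 445 and 439 in lung, at 741, 797 and 762 in intestine and at 270, 176 and 312 in bladder. Its libraries did not overlap between any tissues, with intestine highest and bladder lowest. The log2 difference was 0.84 (SE 0.21) for lung minus bladder (limma adjusted p = 0.011), 1.64 (SE 0.19) for intestine minus bladder (adjusted p = 8.42e-05) and -0.79 (SE 0.21) for lung minus intestine (adjusted p = 0.016). With the deposited scaling undone the difference of lung from bladder was 1.35. The call between lung and intestine was lost when intestine library 2 or lung library 2 was left out (adjusted p = 0.055 and 0.058).

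Notch4 (chromosome 17, 34783242 to 34807477, plus strand) was at 326 and 273 in lung, at 532, 466 and 494 in intestine and at 170, 61 and 98 in bladder. Bladder library 1 was almost 3 times bladder library 2, yet no tissues overlapped. Notch4 rose in lung over bladder by 1.56 (SE 0.35, limma adjusted p = 0.0062) and in intestine over bladder by 2.29 (SE 0.31, adjusted p = 0.00024). For lung minus intestine its log2 difference was -0.73 (95% interval -1.52 to 0.06, adjusted p = 0.127), and it passed when bladder library 1 or 2 was left out (0.034 and 0.043).

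Notch2 did not differ between the tissues past the threshold. Notch2 (chromosome 3, 97920843 to 98057677, plus strand), a receptor that is expressed in many cell types, was at 570 and 376 in lung, at 485, 624 and 459 in intestine and at 559, 566 and 601 in bladder. The lung libraries lay far apart, and the libraries of all 3 tissues overlapped. Its log2 difference was -0.31 (95% interval -0.75 to 0.12) for lung minus bladder, -0.15 (-0.54 to 0.24) for intestine minus bladder and -0.16 (-0.59 to 0.27) for lung minus intestine. The limma adjusted p values were 0.228, 0.490 and 0.539. Without lung library 1 the difference from bladder was -0.61 and passed the test (adjusted p = 0.022), so that lung library decided the value.

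Divided by exon length, so that genes can be set side by side, the receptors had a different make-up in bladder. Notch3 was at 472 ± 19.7 normalized reads per kb in lung (SD, n = 2), at 580 ± 14.8 in intestine and at 36.8 ± 5.28 in bladder (n = 3 each). Notch2 was at 43.9 ± 12.7 in lung, 48.5 ± 8.23 in intestine and 53.4 ± 2.09 in bladder. Of the receptors' summed level per kb, Notch3 held 80.8% ± 3.09 in lung, 77.9% ± 0.95 in intestine and 30.3% ± 3.01 in bladder. Notch2 held 7.51% ± 2.20 in lung, 6.51% ± 1.11 in intestine and 44.2% ± 4.53 in bladder, where it was the highest receptor in each library. The Notch3 to Notch2 ratio per kb was 8.67 and 13.9 in lung, 13.3, 9.85 and 13.5 in intestine, and 0.651, 0.643 and 0.770 in bladder. No bladder library thus had more Notch3 than Notch2 per kb, and every other library had more than 8 times as much. These shares and ratios are descriptions without a test, and a share falls in one receptor when another rises.

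The ligands were highest in intestine. Jag1 (chromosome 2, 136923376 to 136958564, minus strand), a ligand made by both endothelial and smooth muscle cells, was at 841 and 610 in lung, at 2672, 2895 and 2388 in intestine and at 233, 225 and 314 in bladder. The tissues did not overlap, and the lowest intestine library was well above the higher lung library. The log2 difference was 1.49 (SE 0.18) for lung minus bladder, 3.37 (SE 0.16) for intestine minus bladder and -1.88 (SE 0.18) for lung minus intestine. All 3 passed (limma adjusted p = 0.00018, 5.81e-07 and 4.03e-05). The mean in lung was 2.82 times, and that in intestine 10.3 times, the bladder mean.

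Jag2 was the only member that was lower in both lung libraries than in every bladder library. Jag2 (chromosome 12, 112871439 to 112893396, minus strand), the other JAG ligand, was at 93 and 73 in lung, at 883, 582 and 710 in intestine and at 180, 100 and 148 in bladder. Intestine stood apart, with a mean 5.08 times that of bladder, whereas lung was at 0.114 times the intestine mean. Jag2 fell in lung against intestine by 3.10 on the log2 scale (SE 0.28, limma adjusted p = 2.46e-05) and rose in intestine over bladder by 2.36 (SE 0.25, adjusted p = 4.50e-05). For lung minus bladder its log2 difference was -0.74 (95% interval -1.37 to -0.12, adjusted p = 0.058). That value passed when bladder library 2 was left out (log2 difference -0.98, adjusted p = 0.017), and with the deposited scaling undone it was -0.24 (adjusted p = 0.514).

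Dll4 varied most among the bladder libraries. Dll4 (chromosome 2, 119156265 to 119166443, plus strand), a ligand of endothelial cells, was at 215 and 188 in lung, at 672, 626 and 572 in intestine and at 133, 34 and 113 in bladder. Bladder library 2 was far below the other bladder libraries, and the tissues still did not overlap. Intestine exceeded bladder by a log2 difference of 2.94 (SE 0.43, limma adjusted p = 0.00035) and lung was below intestine by -1.62 (SE 0.48, adjusted p = 0.024). For lung minus bladder the difference was 1.32 (95% interval 0.23 to 2.40, adjusted p = 0.054). Without bladder library 2 it was 0.71 and passed (adjusted p = 0.018), and it also passed without bladder library 1 (1.68, adjusted p = 0.022) or 3 (1.56, adjusted p = 0.049). The call between lung and intestine was lost without any single library of these tissues (adjusted p = 0.053 to 0.0999).

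Per kb of exon the ligands summed to 189 ± 35.02 in lung, 721 ± 53.3 in intestine and 88.9 ± 23.5 in bladder (SD). Jag1 was the highest ligand in each library and held 65.7% ± 2.66 of that sum in lung, 63.1% ± 3.38 in intestine and 51.3% ± 11.3 in bladder. Jag2 held 6.32% ± 0.10 in lung, 14.5% ± 2.85 in intestine and 23.1% ± 2.71 in bladder. The Jag1 to Jag2 ratio per kb was 10.8 and 9.99 in lung, 3.62, 5.95 and 4.02 in intestine, and 1.55, 2.69 and 2.54 in bladder, so the libraries of the 3 tissues did not overlap in it. Set against their receptor, the Jag1 to Notch3 ratio per kb was 0.315 and 0.215 in lung, 0.768, 0.871 and 0.715 in intestine, and 1.18, 1.14 and 1.26 in bladder. Lung had the least Jag1 for its Notch3, and bladder, where both genes were low, the most.

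**Figure D3:**
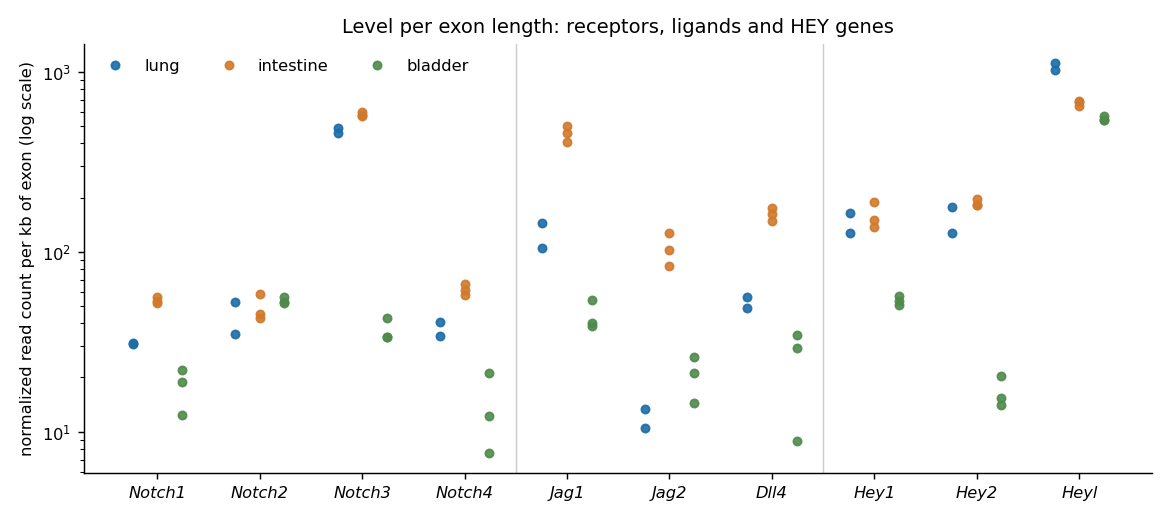
Normalized read count per kb of exon (log axis) for each member and library, with lung, intestine and bladder libraries from left to right within a gene; vertical lines part the receptors, the ligands and the HEY genes. Heyl was the highest member in every library, and Notch3 was second in lung and intestine but not in bladder.

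Of the HEY targets, Hey2 differed most from bladder and Heyl least, whereas Heyl alone passed the test between lung and intestine. Hey2 (chromosome 10, 30708355 to 30718797, minus strand), whose promoter window above holds the RBPJ core letters, encodes a repressor known from arteries and heart. It was at 814 and 587 in lung, at 906, 835 and 833 in intestine and at 65, 71 and 94 in bladder. The lowest lung library was above the highest bladder library by over 6 times, and lung and intestine lay close together without overlap. Hey2 rose by 3.17 (SE 0.20) in lung and by 3.48 (SE 0.18) in intestine over bladder on the log2 scale (limma adjusted p = 3.81e-06 and 7.29e-07). These are 9.14 and 11.2 times the bladder mean. Lung minus intestine gave -0.31 (95% interval -0.76 to 0.14, adjusted p = 0.249).

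Hey1 (chromosome 3, 8728419 to 8732316, minus strand), another HEY repressor, was at 415 and 533 in lung, at 614, 492 and 447 in intestine and at 173, 185 and 166 in bladder. Lung and intestine overlapped, and both stood clear of bladder. Hey1 rose by 1.43 (SE 0.18) in lung and by 1.55 (SE 0.16) in intestine over bladder on the log2 scale (limma adjusted p = 0.00022 and 3.90e-05). Between lung and intestine the difference was -0.13 (95% interval -0.53 to 0.28, adjusted p = 0.610).

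Heyl was the only member highest in lung. Heyl (chromosome 4, 123127349 to 123143668, plus strand), a HEY gene known from vascular smooth muscle, was at 5691 and 5257 in lung, at 3458, 3282 and 3521 in intestine and at 2775, 2922 and 2756 in bladder. The tissues did not overlap, but the whole span was narrow beside that of Hey2 or Notch3. The log2 difference was 0.96 (SE 0.06) for lung minus bladder (limma adjusted p = 5.64e-06), 0.28 (SE 0.06) for intestine minus bladder (adjusted p = 0.0027) and 0.68 (SE 0.06) for lung minus intestine (adjusted p = 3.48e-05). With the deposited scaling undone, the difference from bladder was 1.47 in lung and 0.67 in intestine, and that of intestine was 0.57 after quantile normalization. Heyl had the highest read density of the members, at a mean of 0.764 reads per nt of exon. The 1295 genes of 0.5 to 1 reads per nt had a median log2 difference of -0.18 for lung minus bladder. The part of read density in the Heyl values was not tested.

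Heyl dominated the HEY genes per kb in every library. It was at 1070.6 ± 60.0 in lung, 669 ± 24.2 in intestine and 551 ± 17.8 in bladder, and it held 78.2% ± 0.42 of the HEY sum in lung, 66.0% ± 2.35 in intestine and 88.7% ± 0.35 in bladder. Hey2 held 11.1% ± 1.99 of it in lung, 18.4% ± 0.35 in intestine and 2.69% ± 0.57 in bladder. The Heyl to Notch3 ratio per kb was 2.43 and 2.11 in lung, 1.13, 1.13 and 1.20 in intestine and 16.1, 16.9 and 12.6 in bladder. Heyl thus stayed high in bladder while Notch3 was low. The Hey2 to Notch3 ratio varied much less, at 0.387 and 0.263 in lung, 0.330, 0.319 and 0.316 in intestine and 0.419, 0.458 and 0.477 in bladder. In bladder the order per kb after Heyl was Hey1 (53.5 ± 2.94), Notch2 (53.4 ± 2.09), Jag1 (44.2 ± 8.45) and Notch3 (36.8 ± 5.28), and neighbours in it differed by less than the sum of their SDs.

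Across the 8 libraries the log2 levels of Notch3 and Hey2 ran most closely together of all pairs of members (Pearson r = 0.996), followed by Notch1 with Dll4 (0.984) and Notch3 with Hey1 (0.978). Notch2 had a negative or near-zero r with each other member (-0.517 to 0.060), and that of Heyl with Jag2 was -0.336. The libraries fall into 3 tissues and share their scaling, so these values describe tissue patterns and carry no test. By the root mean square difference of centred log2 levels over the 8 libraries, the genes most like Notch3 were Fam81a (0.242), Iyd (0.264) and Vwf, von Willebrand factor of endothelium (0.266). Those most like Hey2 were Itga7, an integrin of muscle (0.148), Pcdh1 (0.182) and Cspg4 (0.187), the proteoglycan gene whose regulatory region drives Dre in these mice. Cspg4 was at 4757 and 4045 in lung, at 4370, 4617 and 4220 in intestine and at 417, 387 and 433 in bladder, the same split as Hey2.

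The other members had their own nearest genes by the same measure. For Notch1 they were Nipal2, Arhgef15 and Maml3, which encodes a NOTCH coactivator (0.116 to 0.171), and for Notch4 Tm6sf1, Cadm1 and Afap1l1 (0.190 to 0.228). Jag1 was most like the chromatin remodeller gene Chd7 (0.182), then Cabp1 and Ufsp1. Jag2 was most like Adgrg1, an adhesion receptor gene (0.208), then Ifi44 and Slc7a4. Dll4 lay closest to Asic2, Ppp1r16b and Fgr (0.271 to 0.337), the loosest match of any member. Hey1 was nearest to Mcm2, a replication gene (0.112), then Mpp2 and Msra, and Heyl to the interleukin receptor gene Il13ra1 (0.071), then Gstk1 and Zbtb38. Notch2 was nearest to Tfcp2, Bcl2l11 and Tmem127 (0.077 to 0.084).

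In the comparisons with bladder, most endothelial and mural markers rose as most members did, and so did 6 of 10 smooth muscle markers. Of 20 endothelial markers, 15 were higher and 2 lower in lung than in bladder (median log2 difference 1.09), 19 were higher and 1 lower in intestine than in bladder (1.85), and 0 were higher and 12 lower in lung than in intestine (-0.64). Their summed level was 1674 to 1842 ppm in lung, 2486 to 2639 ppm in intestine and 797.9 to 1025 ppm in bladder. None of the 20 was at 0 in all libraries of a tissue. Pecam1, the endothelial adhesion molecule, was at 1417 and 1465 in lung, at 2880, 2862 and 3013 in intestine and at 954, 599 and 773 in bladder. Cdh5, the endothelial cadherin, was at 236 and 355 in lung, at 452, 459 and 491 in intestine and at 146, 83 and 100 in bladder. Both thus had the same order of tissues as Notch1, Notch3, Notch4, Jag1, Dll4 and Hey2. Among members the order was not particular to those known from endothelium, and not all endothelial markers had it. Tek and Kdr were the 2 that were lower in lung than in bladder. Tek was at 731 and 484 in lung, at 1428, 1801 and 1607 in intestine and at 2254, 2254 and 2009 in bladder. Kdr was at 276 and 122 in lung, at 1807, 2004 and 1675 in intestine and at 1040, 698 and 607 in bladder. Bladder library 2 had the lowest value of the bladder libraries in 15 of the 20 endothelial markers and in 5 of the 10 members, namely Notch1, Notch4, Jag1, Jag2 and Dll4. It was also lowest in 7 of 10 smooth muscle, 7 of 11 mural, 6 of 8 epithelial and 4 of 5 urothelial markers, and in 0 of 10 fibroblast markers.

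Of 11 mural cell markers, 8 were higher and 0 lower in lung than in bladder (median log2 difference 2.54), 8 were higher and 1 lower in intestine than in bladder (2.92), and 1 was higher and 1 lower in lung than in intestine (0.03). Their summed level was 2149 to 2475 ppm in lung, 2368 to 2510 ppm in intestine and 939.3 to 977.8 ppm in bladder, with none at 0. Rgs5, a pericyte gene, was at 822 and 431 in lung, at 4420, 4081 and 4107 in intestine and at 260, 275 and 345 in bladder. Pdgfrb, which encodes a growth factor receptor of mural cells, was at 6911 and 5414 in lung, at 6010, 5557 and 5337 in intestine and at 6692, 6985 and 6725 in bladder. Most of this list thus split lung and intestine from bladder as Notch3, Hey1 and Hey2 did, and Pdgfrb was among the genes that did not. Unlike those 3 members, Rgs5 was also much lower in lung than in intestine (log2 difference -2.82, SE 0.23). Of 10 smooth muscle markers, 6 were higher and 0 lower in lung than in bladder (median log2 difference 0.66, range -0.23 to 3.41). In intestine against bladder 6 were higher and 2 lower (0.56, range -0.22 to 3.77). In lung against intestine 2 were higher and 0 lower (0.02). In both comparisons with bladder, all 10 smooth muscle markers were higher with the deposited scaling undone and 8 after quantile normalization. With equal totals 6 were higher in lung and 7 in intestine. All 10 fibroblast markers were lower in lung and in intestine than in bladder, and also with equal totals. With the deposited scaling undone 7 and 6 of the 10 were, and after quantile normalization 8 and 3. The lower calls in intestine against bladder (1 endothelial, 1 mural and 2 smooth muscle genes) were absent under each of the 3 other scalings. The part of these cell types in the members' differences was not tested.

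Epithelial, neural and immune markers also differed between tissues. The sum of 8 epithelial markers was 66.9 to 110 ppm in lung, 1489 to 1571 ppm in intestine and 323.7 to 519.1 ppm in bladder. Jag2, a ligand also made by epithelia, had the same order of tissues. The sum of 10 neuron and glia markers was 54.5 to 74.5 ppm in lung (Chat and Sox10 at 0), 282.4 to 329.5 ppm in intestine and 42.4 to 49.6 ppm in bladder (Chat and Vip at 0). Against bladder all 10 of these were higher in intestine, and 9 were lower in lung than in intestine (median log2 differences 3.90 and -4.70), while 2 were higher and 2 lower in lung than in bladder. For 8 leukocyte markers the sum was 169.1 to 180.6 ppm in lung, 111.2 to 135.3 ppm in intestine and 261.1 to 442.3 ppm in bladder (Cd3e at 0). Organ-specific epithelium was read in its own organ: 7 lung epithelial markers summed to 320.7 to 337.5 ppm in lung, 8 intestinal ones to 531.8 to 607.6 ppm in intestine and 5 urothelial ones to 454.4 to 622.7 ppm in bladder. In the other tissues these sums were 7.97 to 50.2 ppm, with Cdx1, Cdx2 and Atoh1 at 0 in lung, Cdx1, Cdx2 and Alpi at 0 in bladder, Sftpa1 at 0 in bladder, Upk2 and Krt5 at 0 in lung and Krt5 at 0 in intestine. The upper end came from the intestinal list, through Lgr5. Lgr5 was at 556 and 265 in lung and at 559, 461 and 444 in bladder, against 396, 359 and 404 in intestine. The other genes of that list were at 0 to 9 in lung and bladder. Whether any of these cell types contributed to the members' values was not tested.

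**Figure D4:**
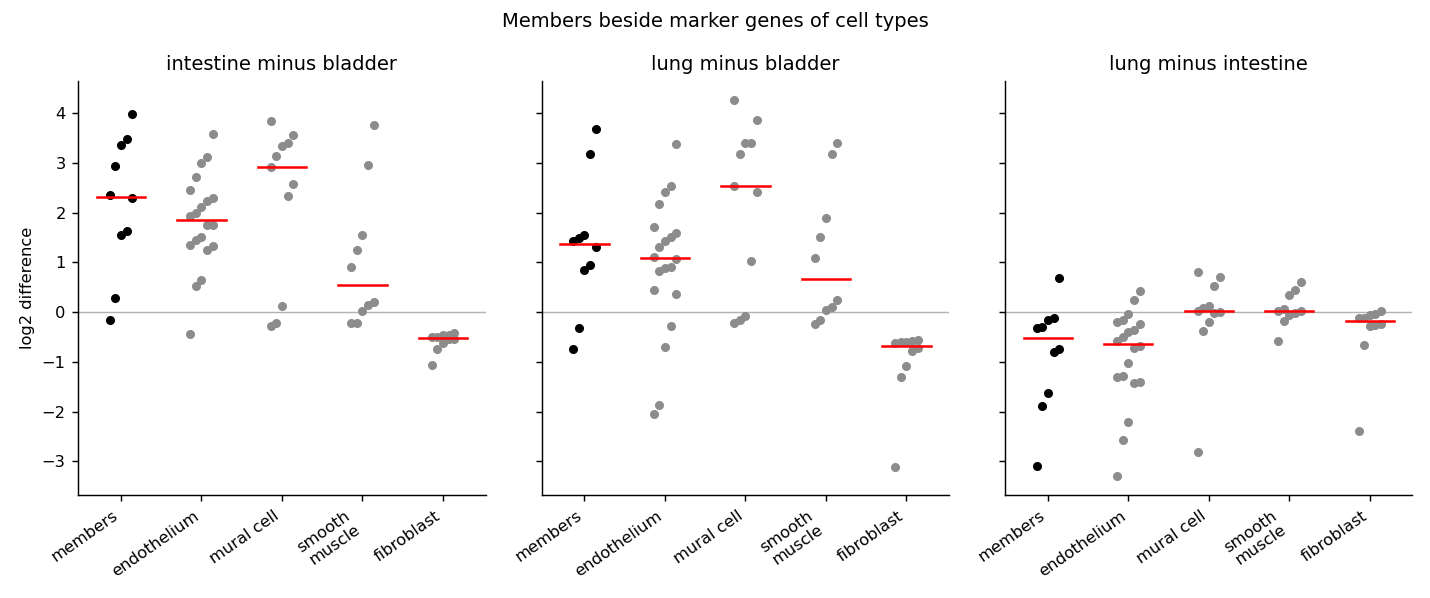
Log2 difference (y axis) of each member and of each marker gene of 4 cell types for the 3 pairs of tissues; points are genes and red lines are medians. Endothelial, mural and smooth muscle markers lay mostly above 0 in both comparisons with bladder, as did the members, and all fibroblast markers lay below 0 there.

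Counts for the other genes of the pathway depended on the scaling. In both comparisons with bladder they moved most with the deposited scaling undone, which removes the correction for depth. A list of 50 other NOTCH pathway genes (further ligands, glycosyltransferases, proteases, ubiquitin ligases, the RBPJ complex, co-repressors, turnover genes and other targets) was in the table in full, and 49 were tested. In lung against bladder 7 were higher (14.3%, against 19.2% of all genes) and 16 lower (32.7%, against 21.8%). With the deposited scaling undone, 24 were higher and 5 lower, beside 7986 and 1882 of all 18159 genes tested then. Equal totals gave 8 and 13, and quantile normalization 7 and 12. In intestine against bladder 11 were higher (22.4%, against 28.7% of all genes) and 16 lower (32.7%, against 23.3%). The undone scaling gave 21 and 4, beside 8354 and 1914 of all 18159 genes. Equal totals gave 15 and 15, and quantile normalization 12 and 18. In lung against intestine 6 were higher (12.2%, against 15.9% of all genes) and 12 lower (24.5%, against 23.6%). These counts were 9 and 8, 9 and 11, and 12 and 11 under undone scaling, equal totals and quantile normalization. Median log2 differences were -0.05, -0.11 and -0.16 in that order of comparisons, against 0, 0.06 and -0.04 over all genes.

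**Figure D5:**
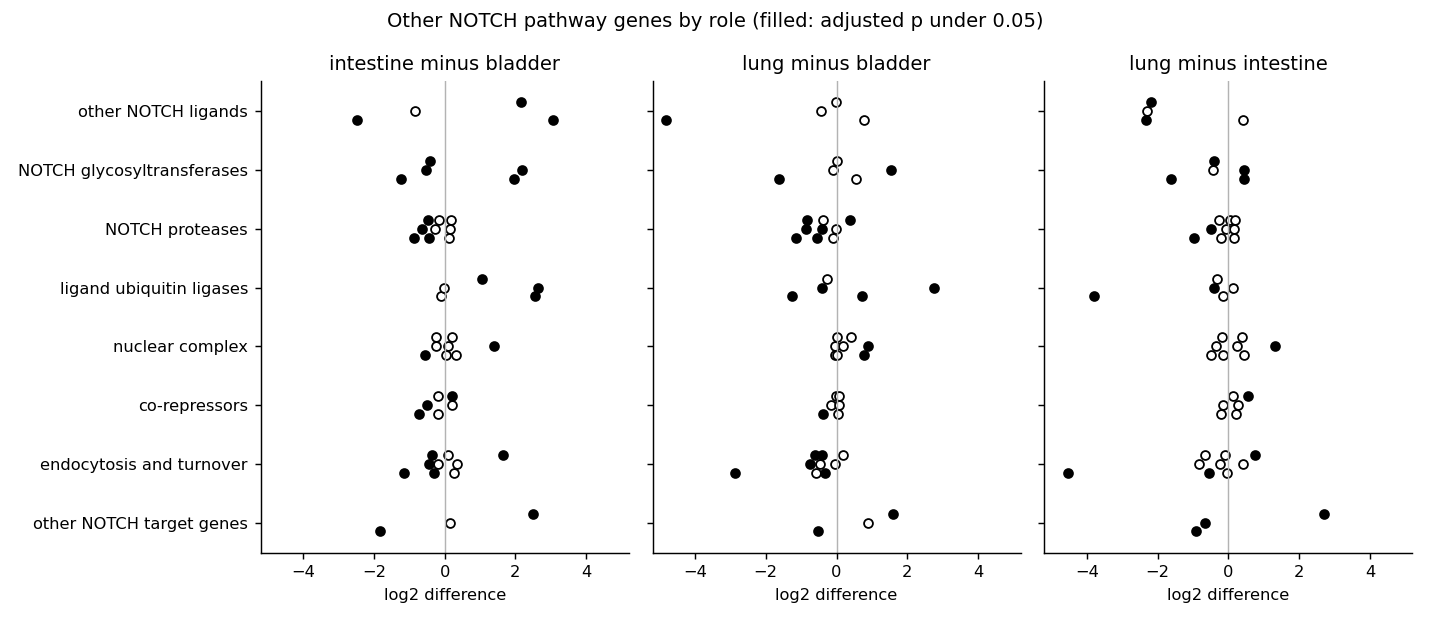
Log2 difference (x axis) of the other NOTCH pathway genes by role for the 3 pairs of tissues; filled points passed an adjusted p of 0.05. Most genes lay within 1 of 0, and single ligand, ubiquitin ligase and target genes lay far from it on either side.

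Single genes of that list stood further out and kept their call under each scaling. Nrarp, a NOTCH target that feeds back on the pathway, was at 202 and 243 in lung, at 512, 402 and 365 in intestine and at 57, 75 and 92 in bladder. It rose in intestine over bladder by 2.51 on the log2 scale (SE 0.22, limma adjusted p = 1.55e-05). Neurl1b, a ubiquitin ligase that acts on NOTCH ligands, was at 191 and 268 in lung, at 222, 201 and 204 in intestine and at 30, 34 and 34 in bladder. It rose by 2.76 (SE 0.24) in lung and by 2.64 (SE 0.21) in intestine over bladder (limma adjusted p = 2.38e-05 and 8.58e-06). Both genes had low bladder values in all 3 libraries, as Notch3 and Hey2 did. Pofut1, which adds fucose to NOTCH receptors, was at 480 and 658 in lung, at 723, 766 and 735 in intestine and at 1879, 1771 and 1596 in bladder. It fell by 1.63 (SE 0.14) in lung and by 1.23 (SE 0.12) in intestine against bladder (limma adjusted p = 1.85e-05 and 2.95e-05). Bladder was the highest tissue for this enzyme, the reverse of Nrarp and Neurl1b.

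Ligands outside the members went different ways. Dll1, a canonical ligand, was at 113 and 104 in lung, at 473, 502 and 510 in intestine and at 99, 88 and 153 in bladder. Dll1 was thus high in intestine alone, with a log2 difference of 2.16 (SE 0.21) from bladder and -2.18 (SE 0.24) for lung minus intestine (limma adjusted p = 3.25e-05 and 9.76e-05). Dlk1, a non-canonical ligand of mesenchymal and progenitor cells, was at 14 and 42 in lung, at 102, 122 and 161 in intestine and at 734, 682 and 718 in bladder. It fell by 4.81 (SE 0.39) in lung against bladder (limma adjusted p = 1.74e-05) and was lower in lung than in intestine by -2.32 (SE 0.39, adjusted p = 0.0014).

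The remaining named genes were turnover, protease, co-repressor and nuclear genes. Dtx1, a ubiquitin ligase that acts on NOTCH, had a log2 difference of -4.52 (SE 0.43) for lung minus intestine, with means of 54.0 in lung and 1067 in intestine. Neurl3, a ubiquitin ligase of the same family as Neurl1b, had one of -3.81 (SE 0.33), with means of 54.0 in lung and 778 in intestine. Both had their low values in each lung library. Maml2, a coactivator of the RBPJ complex, was higher in lung than in intestine by 1.31 (SE 0.11), and Hes1, a target outside the HEY family, was lower by -0.66 (SE 0.11). The limma adjusted p values for lung minus intestine were 3.88e-05, 2.03e-05, 1.84e-05 and 0.0011 for Dtx1, Neurl3, Maml2 and Hes1. Hes1 thus did not share the low bladder values of Hey1 and Hey2: its means were 1440.5 ± 185 in lung, 2269 ± 165 in intestine and 2052 ± 174 in bladder.

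Of the genes of the proteases that release NOTCH, Adam17 (log2 difference -1.14, SE 0.11), Psen2 (-0.86, SE 0.11) and Ncstn (-0.54, SE 0.06) were lower in lung than in bladder (limma adjusted p = 3.86e-05, 0.00024 and 0.00012). They were also lower in intestine than in bladder (-0.86, -0.64 and -0.47, limma adjusted p = 6.34e-05, 0.00047 and 9.00e-05). None of them passed for lung minus intestine. In lung against bladder with the scaling undone, Adam17 was at -0.63 and Psen2 at -0.35, which still passed. Ncstn was at -0.03, which did not. Ncstn did not pass there after quantile normalization either (-0.17). With equal totals Adam17, Psen2 and Ncstn all passed in lung against bladder (-0.997, -0.718 and -0.400). Numbl, which encodes a NUMB-like inhibitor of NOTCH, had a log2 difference of -1.14 (SE 0.11) for intestine minus bladder (adjusted p = 3.29e-05), and of -0.75 with the scaling undone. The co-repressor gene Ctbp1 had one of -0.50 (SE 0.05, adjusted p = 5.58e-05), which was -0.10 with the scaling undone and did not pass. With equal totals Ctbp1 was at -0.41 and passed (limma adjusted p = 0.00014).

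Genes whose annotated spans overlap a member could add reads to it, since the library kit does not mark strand and the strand setting of the counting is not given in the sources used here. Gm14207, a non-coding gene on the other strand that shares 411 nt with Dll4, was at 13 and 21 in lung, at 41, 48 and 49 in intestine and at 1, 1 and 5 in bladder, the same order as Dll4 at a far lower level. Gm17276 lies across 21024 nt of the Notch3 span on the other strand and was at 2 to 21 in all libraries. 0610009E02Rik at Notch1 was at 15 to 35, and Gm42820 at Notch2, on its own strand, at 0 to 18. Each was below the member it overlaps in every library. Reads of a member and of its overlapping gene cannot be told apart here.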

How the data were processed

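Per the labels, total RNA of sorted cells was purified with a DNase step, and at most 10 ng per sample went into SMART-Seq v4, a full-length cDNA kit without strand marking. Build mm39, featureCounts 2.0.4, DESeq2 1.36.0, STAR 2.7.10a, Trimmomatic 0.39 and Picard 3.0.0 are listed, without role or order, per the submitters' processing notes. The authors deposited 1 table of normalized values rounded to whole numbers, treated here as a score because they are no raw counts. The spacing of the values gave the value of 1 read per library (0.822 to 1.27), from which depth was estimated, and a listed 0 allows up to 3 reads, a value of 2.47 to 3.81 (counting error only).

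Genes that reached a value of 10 in at least 2 libraries (18097, all 10 members among them) were tested as log2(value + 1) with limma 3.58.1 (R 4.3.3, intensity trend, a single fit over the 8 libraries with tissue means). The design foresaw this test for a table that holds no counts. The fit was checked on simulated data. Levels per kb used GENCODE M21 exon lengths (96.8% of gene IDs), and promoter windows came from RefSeq. Named genes were all members and up to 6 other pathway genes per pair of tissues with the smallest p among those past the threshold. Genes that overlap a member, the 3 genes most like each member, and the first 2 markers of a list with any at 0 in a whole tissue were also named. Lgr5 was added for its level in lung and bladder, and Tek and Kdr as the endothelial markers lower in lung than in bladder. Of the neuron and glia markers, 1 gene is not reported here. The members and lists were chosen with earlier results of these data known. The alternatives were other pseudocounts, filters, scalings, weights and fits, a replicate block, and leaving out each library.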

Additional observations from a re-analysis of the deposited data

How the results depend on the processing

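Each of the 30 differences of a member between a pair of tissues was computed under 19 alternatives, and 20 kept their call and direction in all of them. Of the 570 values, 536 kept both, 18 gained the call, 11 lost it and 5 turned direction. With the deposited scaling undone, the median of all genes moved to 0.48 for lung minus bladder and 0.46 for intestine minus bladder, and Notch2 turned to 0.20 and 0.24 there, below these shifts. In those pairs 7986 and 8354 of all genes were then higher, with 1882 and 1914 lower, and of the other pathway genes 24 and 21 were higher, with 5 and 4 lower. Quantile normalization gave 12 pathway genes and 4822 of all genes higher, with 3580 lower, in lung minus intestine, and 4258 higher with 5547 lower in intestine minus bladder. Of all genes 4571 were higher and 3220 lower in lung minus bladder with equal totals, against 3466 and 3952 as reported. In lung minus intestine the undone scaling gave 3708 and 3565 and equal totals 3439 and 4044, against 2882 and 4275. Quantile normalization also gave 1 member lower in lung minus bladder (Jag2), as did the replicate block, beside 3365 and 3671 of all 18097 genes. Library weights left 2 members lower in lung than in intestine, beside 3402 of all 18097 genes. A fit of only the tissues of the pair gave 6 members lower there, beside 3984 of all 17439 genes tested then. Leaving out 1 bladder or intestine library gave 0 to 1 members lower in lung minus bladder and 2 to 5 in lung minus intestine. Of all 17815 to 17965 genes tested then, 3354 to 3775 and 3428 to 4182 were lower in these pairs. Leaving out 1 library of any tissue gave -0.46 to 0.14 for Notch2 and -0.31 to 0.055 for Hey1 between lung and intestine. With 1 lung library left, that library is assumed to vary like the other groups. Under the replicate block 8 members were higher in lung and 9 in intestine than in bladder, beside 3115 and 5058 of all 18097 genes. Libraries of the same number did not deviate together (correlations of -0.026 to 0.058, against a limit of 0.1). With deviations taken from means of 2 or 3 libraries, this check cannot tell whether libraries share a mouse. No label names the mice either. The cause of these changes was not tested, other than that the undone scaling removes the correction for depth. With 2 lung libraries, differences of lung had the wider intervals, and values below 3 reads are not told from 0.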
